A study of Mus musculus with 18 samples.

Results

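Gm4258 and Gm34353 are the annotated long non-coding genes on either side of the Mir181a-1 and Mir181b-1 hairpins on mouse chromosome 1. Whether the primary transcript of these 2 microRNAs (miRNAs) covers the whole stretch from Gm4258 to Gm34353 was not tested. Chimeric reads of a miRNA with this stretch were counted, which is called the host here. The members were chosen by position: plus-strand reads on chromosome 1 between 137898594 and 138009726, a stretch of 111133 nt, outside both hairpins. The stretch itself was selected on these data, because its reads were more frequent in knockout than in wild-type libraries. The rule found 4803 reads among 1190995 chimeric reads of 12 libraries, or 0.403%. They carried 102 of the 374 miRNA names in the libraries. The minus strand of the same stretch held 3 reads. The first host read lay 130 nt after the start of Gm4258 and the last lay 52 nt before the end of Gm34353, so reads spanned nearly the whole interval.

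The libraries came from miR-eCLIP of thymocytes of 6-week-old mice. Argonaute 2 (Ago2) is the protein that holds a miRNA on its target, and it is fixed to RNA with UV light of 254 nm. After immunoprecipitation (IP) of Ago2, the miRNA is ligated to the RNA fragment in the same complex, so that a read names the miRNA and places its partner. The 4 groups of 3 libraries were an Ago2 IP of C57BL/6 mice (wild type), an Ago2 IP of B6.Mirc14tm1.1Ankr mice (knockout), and, for each genotype, libraries of such an IP enriched for miR-181 chimeras. The allele is a targeted mutation of the gene cluster of Mir181a-1 and Mir181b-1, and the labels name no Cre driver that would limit it to thymocytes. The 6 input samples were not analysed here.

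A miRNA is cut from a hairpin in a longer primary transcript by Drosha in the nucleus, and the rest of that transcript is usually spliced or degraded. miR-181a is abundant in thymocytes with both CD4 and CD8, where it is known for tuning signalling of the T cell receptor. Mouse miR-181 is made from further loci besides the deleted one: a copy of the a and b hairpins on chromosome 2, and the c and d hairpins on chromosome 8. miR-142 is a miRNA of blood cells, let-7 is a large family that rises as cells differentiate, and miR-17, miR-20a and their relatives promote cell proliferation.

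The miRNAs that made most of the host reads fell into few seed families. A seed is bases 2 to 8 of the miRNA, which pair first with a target, and it is given in capitals. The sequences are mature miRNAs from RefSeq, assembly GRCm38.p6, where 76 of the 102 names matched, with 4669 of the 4803 reads. The first set below shares the seed of the deleted miRNAs.
miR-181a-5p: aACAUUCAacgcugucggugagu
miR-181b-5p: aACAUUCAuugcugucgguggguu
miR-181c-5p: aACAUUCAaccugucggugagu
miR-181d-5p: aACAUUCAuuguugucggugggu
The 4 names have 1 seed and differ after it, so what distinguishes a from b at a site lies outside the seed. The next names stand for the other seed families with many host reads.
miR-142a-3p: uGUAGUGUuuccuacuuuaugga
let-7a-5p: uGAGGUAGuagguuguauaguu
let-7c-5p: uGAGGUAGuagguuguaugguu
let-7d-5p: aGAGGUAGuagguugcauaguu
miR-17-5p: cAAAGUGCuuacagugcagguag
miR-20a-5p: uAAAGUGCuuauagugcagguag
miR-93-5p: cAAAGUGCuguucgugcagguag
miR-16-5p: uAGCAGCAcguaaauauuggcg
miR-30c-5p: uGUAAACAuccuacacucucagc
The hairpins that the rule leaves out, and that the knockout lacks, are shown with the 5′ arm in capitals, both on the plus strand.
Mir181a-1, chr1:137966455-137966541: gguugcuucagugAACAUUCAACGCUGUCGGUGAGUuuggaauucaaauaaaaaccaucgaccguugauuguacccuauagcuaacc
Mir181b-1, chr1:137966639-137966718: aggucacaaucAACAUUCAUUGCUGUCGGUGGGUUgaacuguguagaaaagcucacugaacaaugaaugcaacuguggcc

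The hairpins check the genotype labels. Among wild-type libraries, Mir181a-1 had 1287 reads with the Ago2 IP and 73308 after enrichment, and Mir181b-1 had 552 and 20617, each over 3 libraries. All 6 knockout libraries had 0 reads at both. No knockout read lay in the 391 nt between 137966337 and 137966729, which begins 118 nt before Mir181a-1 and ends 11 nt after Mir181b-1. Wild-type libraries had 5 host reads there in the Ago2 IP and 21 after enrichment. Libraries held from 6832 to 293149 chimeric reads, and the knockout enriched ones were the smallest. Of 12 thymocyte markers, 12 had reads in each wild-type group and 11 in each knockout group, Ptcra being at 0 there. Their summed level, in reads per 1000000 chimeric reads of a library (rpm), was 18621 to 19831 in the wild-type and 17209 to 18392 in the knockout Ago2 IP. Lists of B cell, myeloid, stromal and red cell markers summed to at most 101 rpm in any Ago2 IP library and 146 rpm in any enriched one, and their part in the results was not tested. Knockout enriched libraries 2 and 3 were not told apart from sampling noise (chi-square 161.6 on 148 degrees of freedom, p = 0.211 over 149 gene spans), while the other pairs of all groups differed (p at most 0.00379). Their values are therefore also given with both counted as 1 sample (n = 2).

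Host reads were more frequent in every knockout library than in any wild-type library of the same kind. In the wild-type Ago2 IP the 3 libraries had 396, 233 and 178 host reads, or 3360, 3373 and 4047 rpm. The knockout Ago2 IP had 608, 695 and 558 host reads, or 10002, 10275 and 10710 rpm. The means were 3594 ± 393 and 10329 ± 357 rpm (SD, n = 3 each), and the groups did not overlap. The ratio of pooled reads was 2.95 (exact 95% counting interval 2.71 to 3.21). After enrichment, wild-type libraries had 2200, 2497 and 2579 rpm and knockout libraries 9027, 8981 and 10539 rpm, again without overlap. Their means were 2425.5 ± 199 and 9515 ± 886.5 rpm (SD, n = 3), the latter 9393 ± 518 with libraries 2 and 3 as 1 sample (SD, n = 2). The pooled ratio was 3.86 (3.44 to 4.33). These are shares of all chimeric reads. That total includes the reads at the 2 hairpins, which only wild-type libraries had. This lowers the wild-type rpm, more so after enrichment. In bulk thymocytes, more cells with the transcript and more of it per cell cannot be told apart, nor can more transcript and more Ago2 on it.

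**Figure D1:**
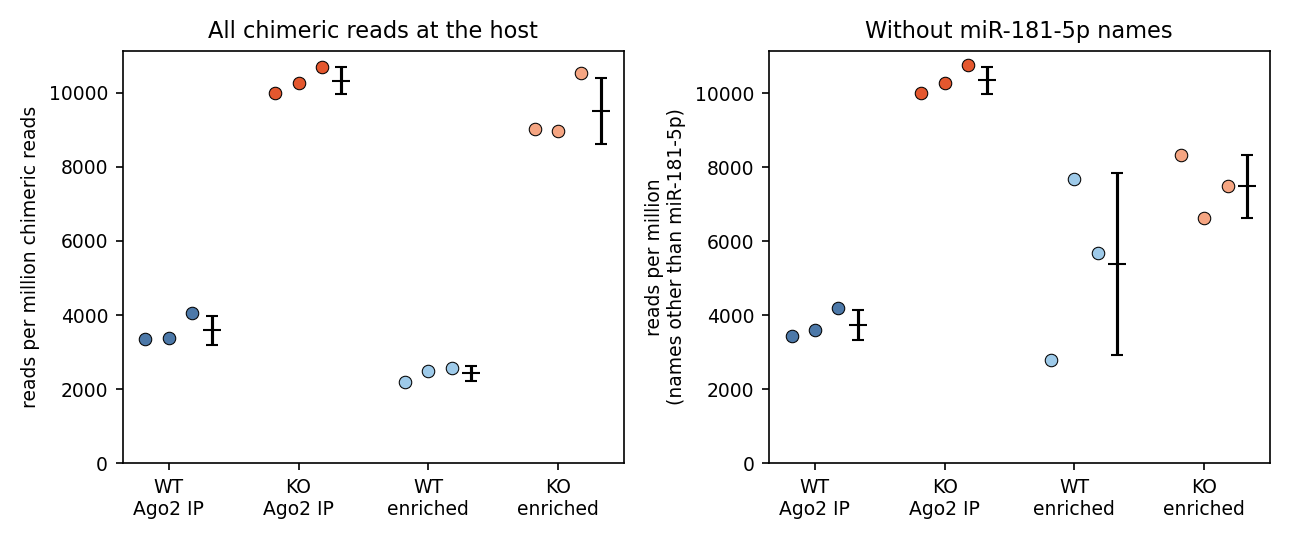
Host level in rpm in each of the 12 libraries (points), with the mean and SD of each group beside them; the left panel takes all chimeric reads, the right panel takes reads of names other than miR-181-5p, in rpm of such reads. On the left, knockout libraries sit between 8981 and 10710 and wild-type libraries between 2200 and 4047; on the right the enriched groups overlap.

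Since miR-181 names made up about 3 in 10 wild-type Ago2 IP reads, their loss raises the share of everything else. Without miR-181-5p names in numerator and denominator, wild-type Ago2 IP libraries had 3425, 3604 and 4197 rpm at the host and knockout ones 10019, 10270 and 10750. The pooled ratio was then 2.85 (2.59 to 3.13), close to that of all names. After enrichment the same quantity rested on 39 wild-type and 79 knockout reads. Its pooled ratio was 1.47 (0.986 to 2.21), and the libraries of both genotypes overlapped. In a fit over all gene spans of the Ago2 IP (edgeR, TMM scaling), the host had a log2 fold change of 1.51 (SE 0.09), above 99.9% of 1571 spans with a median of 0.01. Of these spans, 2.99% were called higher in the knockout and 6.68% lower. Without miR-181-5p names the value was 1.503 (SE 0.08). After enrichment, with all names, the host was at 1.66 (SE 0.16), above 98.6% of 2080 spans with a median of -0.13. The contrast of knockout and wild type chose the locus, so these values describe it and no p is given.

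The change was not even along the host. Far upstream, between 70 and 40 kb before Mir181a-1, the wild-type Ago2 IP libraries had 116, 64 and 44 reads and the knockout libraries 67, 81 and 58. This is 970 ± 38.8 and 1138 ± 52.2 rpm (SD, n = 3 each), a pooled ratio of 1.18 (0.969 to 1.43). In the 40 kb before the hairpin, wild-type libraries had 243, 147 and 122 reads and knockout libraries 369, 404 and 359. The levels were 2321 ± 393 and 6311 ± 504 rpm, and the ratio was 2.83 (2.55 to 3.15). Downstream of the Mir181a-1 start, wild-type libraries had 37, 22 and 12 reads and knockout libraries 172, 210 and 141. There the level went from 302 ± 25.2 to 2880 ± 204 rpm, a ratio of 9.42 (7.34 to 12.3). The knockout was above wild type without overlap in each of the 3 stretches, by far the least in the first. That stretch holds a large site led by miR-181, described below as site 1. It had 51 wild-type and 20 knockout reads in the Ago2 IP, and 232 and 4 after enrichment. These reads lower the far upstream ratio in both kinds of library. The border at 40 kb was set after the profile had been seen; with a border at 50 or at 30 kb, the upstream ratio was 1.44 in both cases.

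**Figure D2:**
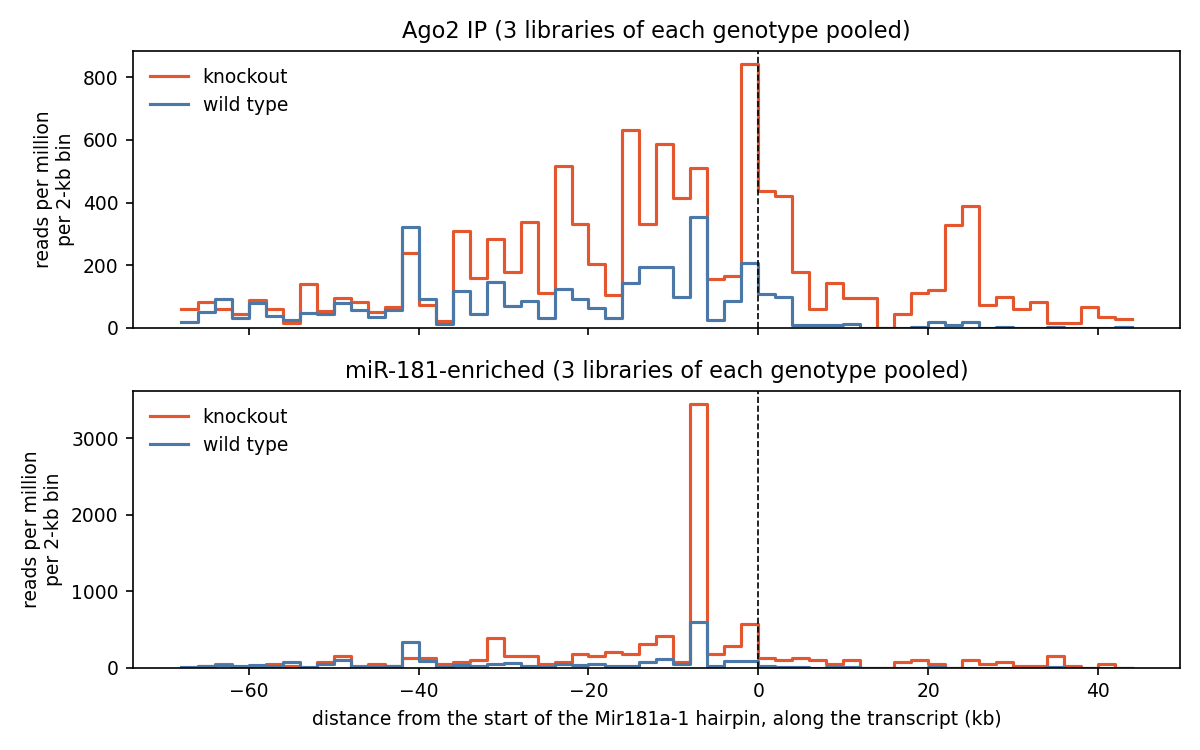
Host level in rpm in bins of 2 kb, by distance from the start of the Mir181a-1 hairpin (dashed line; negative values lie upstream), with the 3 libraries of each genotype pooled. In the Ago2 IP the genotypes lie closer together far upstream than in the 40 kb before the hairpin and beyond it. After enrichment the highest bin holds the site with most reads.

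The enriched libraries gave the same order of the 3 stretches. Ratios of knockout over wild type were 0.848 (0.544 to 1.27) far upstream, 4.68 (4.09 to 5.34) in the 40 kb before the hairpin and 16.3 (11.1 to 23.9) downstream. The order also held for names other than miR-181 in the Ago2 IP, with ratios of 1.24 (0.995 to 1.54), 2.71 (2.41 to 3.06) and 7.31 (5.63 to 9.63). It held within 1 miRNA: miR-142a-3p had 77 wild-type and 112 knockout reads far upstream, 142 and 459 in the middle stretch and 28 and 228 downstream. Its ratios were 1.31 (0.968 to 1.77), 2.90 (2.399 to 3.53) and 7.31 (4.93 to 11.3). For the let-7-5p names they were 0.898 (0.420 to 1.92), 2.48 (1.99 to 3.10) and 17.6 (7.29 to 55.4), the last from 5 wild-type and 98 knockout reads, and the first with libraries that overlapped. The enriched and Ago2 IP libraries were separate, but the labels do not say whether they came from separate animals.

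By 10-kb bins, the Ago2 IP ratio was between 0.975 and 1.54 in the first 3 bins. The lowest was in the bin that holds site 1, and the highest (1.06 to 2.25) came without overlap of the libraries. The ratio was 2.06 (1.58 to 2.69) in the next bin, and between 2.69 and 3.66 from 30 kb before the hairpin up to it. It was 5.31 (3.93 to 7.28) in the first 10 kb after the start of the hairpin. Further downstream, wild-type reads were few. At 20 to 30 kb there were 11 wild-type and 182 knockout reads, a ratio of 21.2 (11.6 to 43.2). At 30 to 40 kb there was 1 wild-type read against 44, a ratio of 56.3 with a counting interval from 9.59 to 2273.

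**Figure D3:**
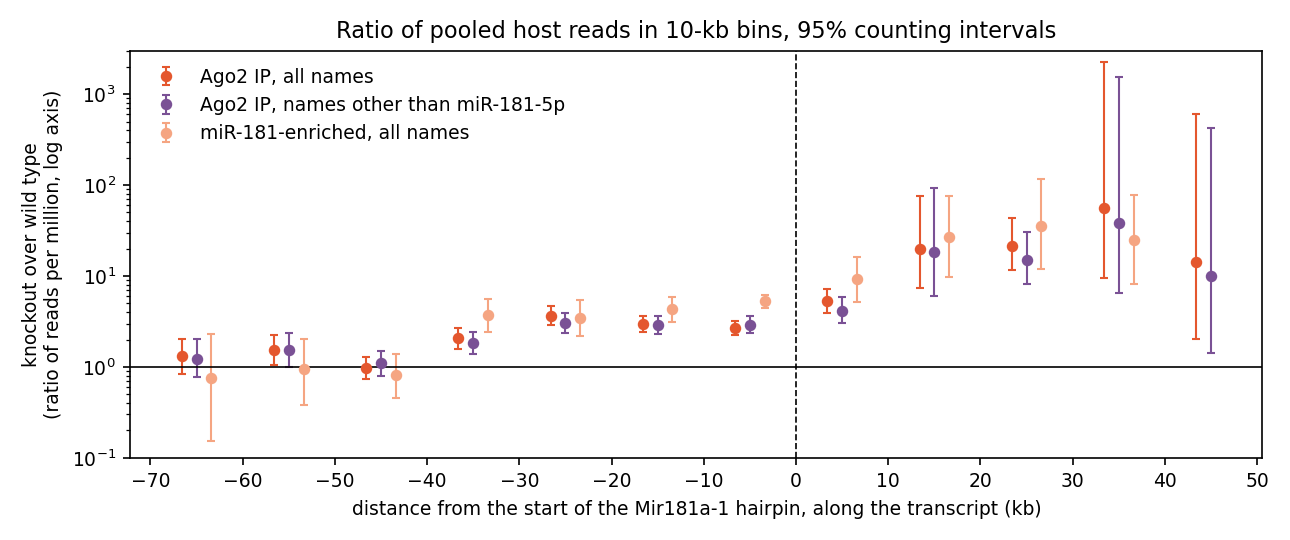
Ratio of knockout over wild type in rpm (log axis) in 10-kb bins along the host, with exact 95% counting intervals, for the Ago2 IP with all names, the Ago2 IP with names other than miR-181-5p, and the enriched libraries; bins with 0 wild-type reads have no point. For all names in the Ago2 IP, the ratio is between 0.975 and 1.54 in the first 3 bins and above 5 in all bins after the dashed line.

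By annotated segment, Gm4258 had 332, 196 and 153 wild-type and 389, 422 and 368 knockout Ago2 IP reads. Between its end and Mir181a-1 there were 27, 15 and 13 against 47, 63 and 49 reads. Between Mir181b-1 and the start of Gm34353, which no gene of the table covers, there were 35, 19 and 10 against 147, 178 and 120. Gm34353 itself had 1 read in each wild-type library and 25, 32 and 21 in the knockout, a ratio of 33.3 with an interval from 11.0 to 165. The share of host reads upstream of Mir181a-1 in the Ago2 IP was 91.5% ± 1.53 for wild type and 72.1% ± 2.49 for the knockout (SD, n = 3 each). After enrichment it was 96.4% ± 0.397 and 85.7% ± 2.79 (SD, n = 3), the latter 86.3% ± 2.69 with libraries 2 and 3 as 1 sample (n = 2). In both kinds of library the knockout share lay below all wild-type ones. Exons and introns of Gm4258 and Gm34353 were not analysed here.

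The families that held the host reads were those that held reads elsewhere, in somewhat different shares. miR-181-5p names made up 28.8%, 26.2% and 29.8% of the host reads of wild-type Ago2 IP libraries (28.3% ± 1.86, SD, n = 3), against 30.6% ± 0.949 of reads elsewhere outside miRNA hairpins. In the knockout they made up 1.22% ± 0.192 at the host and 1.36% ± 0.0641 elsewhere. After enrichment they were 97.8% ± 0.868 and 98.9% ± 0.239 in wild type, and 77.7% ± 4.31 and 71.4% ± 1.17 in the knockout (76.4% ± 5.26 and 71.1% ± 1.43 with libraries 2 and 3 as 1 sample, n = 2). In the Ago2 IP, miR-142a-3p took 30.6% ± 4.48 of the wild-type host reads and 42.9% ± 1.14 of the knockout ones. The let-7 family took 16.6% ± 1.595 and 22.8% ± 1.42 at the host, against 11.7% ± 0.137 and 16.4% ± 0.723 elsewhere. In each of the 6 Ago2 IP libraries the let-7 share was higher at the host. The family of miR-17, miR-20 and miR-93 had the opposite pattern, with 6.88% ± 1.85 and 10.5% ± 0.543 at the host and 10.2% ± 0.288 and 14.3% ± 0.460 elsewhere. Its share was lower at the host in each of the 6 libraries.

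**Figure D4:**
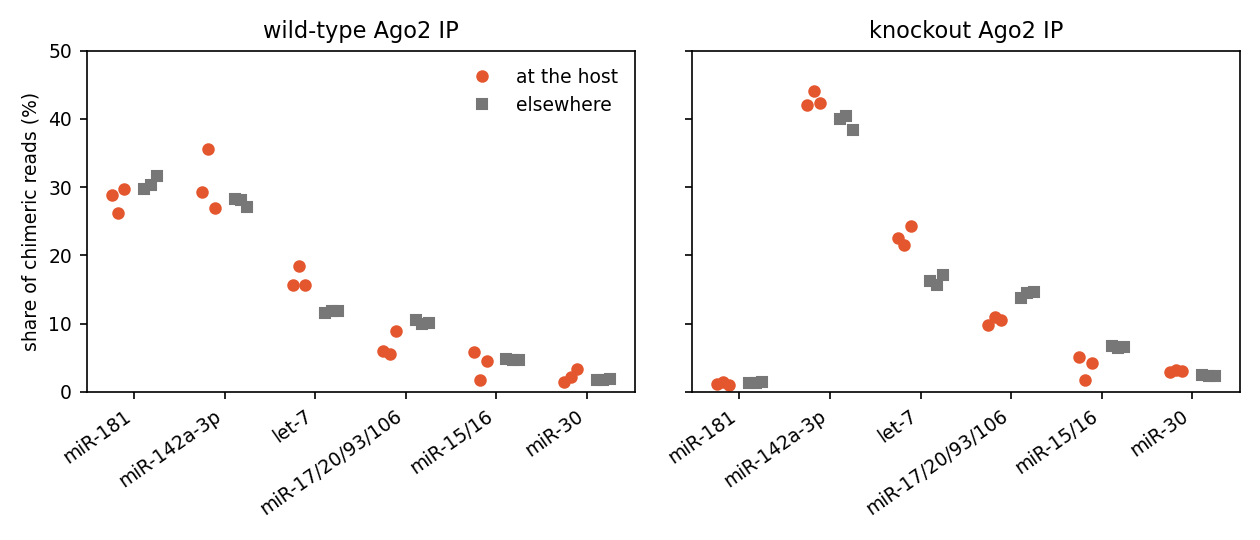
Share of chimeric reads that each seed family took at the host (circles) and elsewhere outside miRNA hairpins (squares), per library, in the wild-type and knockout Ago2 IP. let-7 circles lie above the squares and circles of the miR-17 family below them in both panels, and miR-181 is near 0 in the knockout.

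Within a library, the share of each miRNA at the host was tested against its share elsewhere (edgeR quasi-likelihood test with the library as a block). In the knockout Ago2 IP, 4 of 44 miRNAs were called, or 9.09%, and 13 had an unadjusted p under 0.05. let-7a-5p had a log2 value of 0.63 at the host over the rest (SE 0.11, adjusted p = 0.0169), let-7c-5p 0.85 (SE 0.16, adjusted p = 0.0169) and let-7d-5p 0.75 (SE 0.15, adjusted p = 0.0169). miR-17-5p was lower, at -0.60 (SE 0.14, adjusted p = 0.0298). Site 10, a cluster described below, held 136 of the 1861 host reads of this group. It held 33 of 112 host reads of let-7a-5p, 17 of 63 of let-7c-5p and 34 of 74 of let-7d-5p. The test was not repeated without this site, so the let-7 values may not hold for the rest of the host. Of 7 let-7 names tested, 6 were above 0, with a median of 0.34 against -0.06 over all 44. Of 5 names of the miR-17 family, 4 were below 0, with a median of -0.60. DESeq2 called 0 of the 44 (7 had an unadjusted p under 0.05), with adjusted p values of 0.143, 0.128 and 0.128 for let-7a, let-7c and let-7d. Its SEs were larger than those of edgeR, at 0.25, 0.30 and 0.29 for these names and 0.31 for miR-17-5p. Over 9 alternatives, the log2 value of let-7a-5p stayed between 0.60 and 0.69 and its adjusted p between 6.25e-04 and 0.143, with 7 calls. let-7c-5p and let-7d-5p were called in 6 alternatives each (adjusted p 0.00146 to 0.128 and 0.00146 to 0.150), and miR-17-5p in 3 (0.0131 to 0.280). Without knockout library 1, 2 miRNAs were called, without library 2 it was 4, and without library 3 it was 7.

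In the wild-type Ago2 IP, which has fewer host reads, 1 of 21 miRNAs was called, or 4.76%, and 4 had an unadjusted p under 0.05. This was miR-20a-5p, with 8 host reads and a log2 value of -1.67 (SE 0.49, edgeR adjusted p = 0.0303). It was called in 4 of 9 alternatives (adjusted p from 0.0120 to 0.894), and not by DESeq2 (0.0925) or without library 1 or 3. The 7 let-7 names were all above 0, with a median of 0.36 against 0.17 over all 21, and none was called. let-7c-5p was at 0.79 (SE 0.40, adjusted p = 0.213) and let-7d-5p at 0.75 (SE 0.35, adjusted p = 0.213), close to their knockout values. Site 10 held 6 of the 16 let-7c-5p and 8 of the 24 let-7d-5p host reads here.

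Each of the most frequent names other than miR-181 had more host reads in the knockout. miR-142a-3p had 116, 83 and 48 host reads in the wild-type and 256, 307 and 236 in the knockout Ago2 IP. In rpm this is a pooled ratio of 4.14 (3.58 to 4.79), against 1.42 (1.40 to 1.43) for its reads elsewhere. let-7a-5p had 13, 16 and 2 reads, then 35, 40 and 37, a ratio of 4.62 (3.08 to 7.12) against 1.30 elsewhere. let-7d-5p had 12, 4 and 8, then 27, 25 and 22, a ratio of 3.94 (2.46 to 6.54) against 1.34. These ratios are of rpm over all names, which the loss of miR-181 reads raises at every locus.

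Smaller numbers of reads give wider intervals for the other frequent names. let-7f-5p went from 26 to 62 host reads in all (ratio 3.05, 1.90 to 5.02), let-7c-5p from 16 to 63 (5.04, 2.87 to 9.34) and miR-93-5p from 15 to 49 (4.18, 2.304 to 8.02). miR-17-5p went from 18 to 49 (3.48, 1.99 to 6.35) and miR-16-5p from 30 to 59 (2.52, 1.595 to 4.04). miR-20a-5p had 2, 4 and 2 wild-type and 13, 29 and 14 knockout reads, a ratio of 8.95 with an interval from 4.25 to 21.8. These 6 names had ratios between 1.31 and 1.65 elsewhere. Set against that value, the host changed by 1.85 times for miR-16-5p, by 6.66 times for miR-20a-5p and by between 2.32 and 3.55 times for the other names given here. For names other than miR-181 together, the ratio was 4.06 at the host (3.70 to 4.47) and 1.41 elsewhere.

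In the Ago2 IP, reads of the deleted miRNAs were fewer in the knockout, at the host and elsewhere. miR-181a-5p had 79, 38 and 39 wild-type host reads and 2 in each knockout Ago2 IP library, a ratio of 0.0492 (0.0178 to 0.110) against 0.0208 elsewhere. miR-181b-5p had 30, 19 and 13, then 2, 5 and 1, a ratio of 0.165 (0.0682 to 0.346) against 0.0419. miR-181d-5p, made from the chromosome 8 locus, had 4 and 7 reads in all, and miR-181c-5p 6 and 2. The 3′ arm of the missing Mir181a-1 hairpin, miR-181a-1-3p, had 0 host reads, which allows up to 3 over the 12 libraries. After enrichment, host reads of miR-181c-5p rose from 13 to 56 and of miR-181d-5p from 22 to 55 although knockout libraries held far fewer reads. The ratios were 83.4 (45.1 to 166) for c and 48.4 (29.0 to 83.4) for d, against 25.7 and 23.8 elsewhere. In the same libraries the host ratio of miR-181a-5p was 1.45 (1.16 to 1.78), from 1272 and 95 reads, and that of miR-181b-5p was 3.12 (2.39 to 4.03), from 434 and 70 reads. Elsewhere these ratios were 0.439 and 0.893. The ratios are of rpm over all reads of a library. As a share of the enriched host reads, both names were lower in the knockout. miR-181a-5p went from 71.5% to 26.8% and miR-181b-5p from 24.4% to 19.7%.

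Host reads were spread over many positions. Joining reads at most 20 nt apart gave 999 clusters, 555 of them with 1 read and 77 with at least 10. The 10 largest held 1763 reads, or 36.7% of the total; the tenth was tied with the next at 47 reads. All 10 lay upstream of Mir181a-1, 9 of them in Gm4258. They are numbered here in the direction of transcription, and their positions are from the files (mm10 and GRCm38.p6 are the builds named in the processing notes).

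Site 9, chr1:137959567-137959823, was the largest with 627 reads, and its most frequent position lay 6738 nt before the hairpin. It had 29, 19 and 18 reads in the wild-type and 23, 23 and 19 in the knockout Ago2 IP, and 153, 109 and 110, then 36, 61 and 27, after enrichment. In the Ago2 IP its pooled level was 286 rpm in wild type and 360 in the knockout. After enrichment it was 502 and 3239 rpm, a log2 fold change of 2.55 (SE 0.24) given without a test. In the Ago2 IP the composition of the site differed: miR-181 made 40 of 66 wild-type and 7 of 65 knockout reads. miR-142a-3p went from 6 to 23 reads there, and miR-16-5p from 10 to 18. After enrichment all 372 wild-type and all 124 knockout reads carried miR-181 names. In the knockout these were mostly b (46) and d (44), with 18 of c and 16 of a.

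Site 1, chr1:137924848-137925102, was the second largest with 307 reads and had its most frequent position 41361 nt before the hairpin, in the far stretch. It had 31, 13 and 7 wild-type and 7, 8 and 5 knockout Ago2 IP reads. Its reads were mainly of miR-181a-5p, with 242 of 307. miR-142a-3p, the next name, had 16 wild-type and 15 knockout reads. Repeats of the same position, strand and name were 40.1% of the reads at this site, and the enriched libraries held 232 of its wild-type reads, all miR-181.

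Sites 3, 5, 7 and 10, which other miRNAs led, were higher in rpm in each knockout Ago2 IP library than in any wild-type one. At site 4, a let-7 site with 7, 1 and 1 wild-type and 10, 3 and 8 knockout reads, the groups overlapped. Site 10, chr1:137965027-137965308 (most frequent position 1182 nt before the hairpin), had 21, 11 and 8 wild-type and 40, 50 and 46 knockout reads. It was a let-7 site: let-7d-5p had 48 reads, let-7a-5p 44, let-7c-5p 25, let-7b-5p 16, let-7f-5p 14, let-7g-5p 12 and let-7i-5p 8. In the wild-type enriched libraries it had 40 reads of miR-181 among 43, 36 of them miR-181a-5p, a name with 0 Ago2 IP reads there. Site 5, chr1:137952017-137952191, had 9, 9 and 8 wild-type and 26, 30 and 37 knockout reads, and miR-142a-3p led it with 72 of 134. Site 3, chr1:137943277-137943351, was 38 of 48 miR-142a-3p. Site 7, chr1:137955709-137955935, had 7, 4 and 8, then 22, 25 and 21 reads, a mixture of miR-142a-3p and let-7 names. The smaller sites 2, 4 and 8 had 72, 47 and 62 reads over the 12 libraries, and site 6 had 121, led by miR-181a-5p with 51.

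Over the 77 clusters of at least 10 reads, those led by miR-181 (35 clusters) had 262 wild-type and 214 knockout Ago2 IP reads, a ratio in rpm of 1.05 (0.868 to 1.26). The 24 led by miR-142a-3p went from 116 to 369 reads (4.07, 3.29 to 5.06), the 7 led by let-7 from 76 to 277 (4.66, 3.61 to 6.09) and the 5 led by the miR-17 family from 26 to 89 (4.38, 2.80 to 7.06). Leading families were taken from the same reads, so these ratios only describe the clusters.

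Among miR-181 reads, the share of b relative to a differed between sites. Elsewhere in the genome, miR-181b-5p made up 18.7% of a and b reads over the 12 libraries (95% Wilson interval 18.6 to 18.8). Over the host it was 27.3% (25.4 to 29.2). Site 9 had 266 b and 193 a reads, 58.0% (53.4 to 62.4), and site 8 had 29 and 16, 64.4% (49.8 to 76.8). At site 1 the share was 6.92% (4.42 to 10.7). Site 9 showed this in each kind of library with enough reads: 55.3% with the wild-type Ago2 IP, 55.2% with the enriched wild-type libraries and 74.2% with the enriched knockout ones, against 22.7%, 17.9% and 30.7% elsewhere. Without site 9, the wild-type Ago2 IP libraries had 22.3%, 22.7% and 23.8% of b at the host, close to the 23.0%, 22.1% and 22.7% elsewhere in the same libraries. The wild-type enriched libraries had 15.6%, 16.7% and 21.2% without it, against 16.5%, 17.7% and 20.3%. The knockout enriched libraries had 28%, 19.3% and 28.6% without it, below the 29.5%, 30.7% and 33.04% elsewhere in each library, from 7, 11 and 6 b reads. Sites were chosen by size over all names and reads of 1 site are not independent samples, so no test is given.

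**Figure D5:**
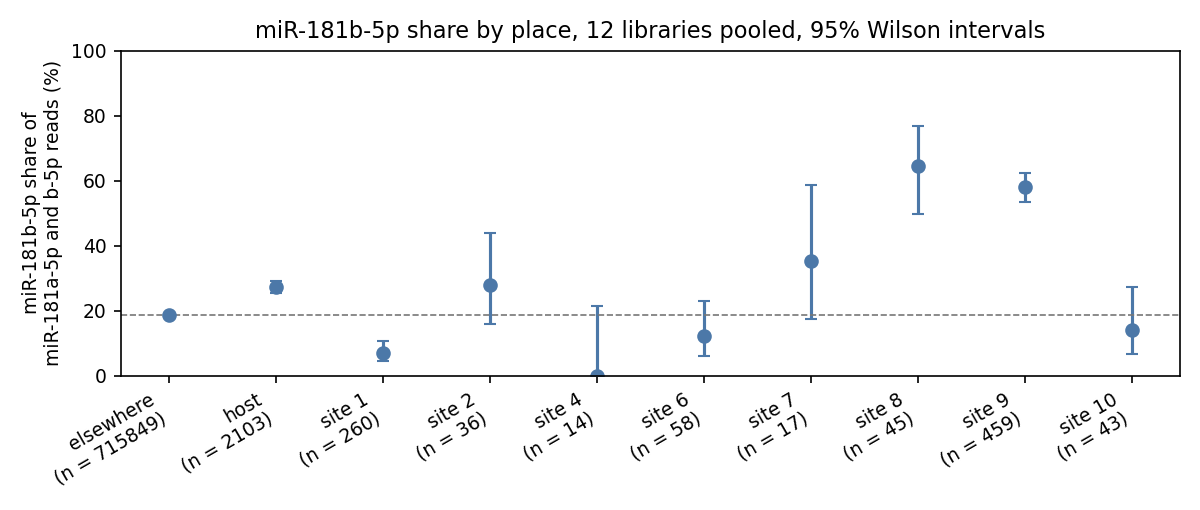
Share of miR-181b-5p among miR-181a-5p and miR-181b-5p reads, with 95% Wilson intervals, elsewhere (also the dashed line), over the host and at those of the 10 largest sites that have a value, 12 libraries pooled; n is the number of a and b reads. Sites 8 and 9 lie above the level elsewhere and site 1 below it.

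The enrichment for miR-181 did not select the rule, so it was tested. The test uses the same Ago2 IP libraries whose host reads chose the locus, so it is not independent of that choice. Compared with the Ago2 IP, the host as a whole changed by -0.19 on the log2 scale in wild type (SE 0.13, edgeR adjusted p = 0.292) and by 0.05 in the knockout (SE 0.12, adjusted p = 0.858). Among all gene spans, 35.4% of 3051 and 20.7% of 796 were called, with medians of -0.02 and -0.05. The wild-type value depended on the processing: counting repeated lines once gave -0.36 (adjusted p = 0.00372), and library sizes alone gave -0.56 (adjusted p = 6.16e-04), both called lower. The knockout value changed sign in 9 alternatives and kept it in 6, and was called lower with no filter on low counts, at -0.65 (adjusted p = 0.0246). The difference of the enrichment between genotypes, fitted over all 12 libraries after the other results were seen, was -0.04 (SE 0.21, adjusted p = 0.977), where 2.25% of 2003 spans were called.

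Single sites moved apart under the enrichment. Leading families were taken from the same reads, and the enrichment was for miR-181. In both genotypes, a fall of sites led by other families was therefore partly set in advance. In wild type, 5 host clusters were tested, 0 were called higher and 3 were called lower, against 56.3% of 1200 clusters called in either direction. No host cluster was higher at an unadjusted p under 0.05 or with DESeq2. Site 5, led by miR-142a-3p, was lower at -4.06 (SE 0.49, edgeR adjusted p = 1.80e-08), and the let-7 site 10 at -2.33 (SE 0.37, adjusted p = 3.38e-06). Site 6 was lower as well at -2.14 (SE 0.41, adjusted p = 4.63e-05), although miR-181a-5p was its most frequent name. The miR-181 sites 1 and 9 were at -0.23 (SE 0.29, adjusted p = 0.510) and 0.01 (SE 0.26, adjusted p = 0.987). These directions depended on the scaling and the filter: library sizes alone gave 1 higher and 3 lower host clusters, and no filter on low counts gave 3 higher and 1 lower.

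In the knockout, 4 host clusters were tested and all were called, where 88.9% of 162 clusters were. Site 9 was higher by 1.78 (SE 0.25, edgeR adjusted p = 9.43e-07), and sites 5, 7 and 10 were lower, at -2.83, -3.14 and -1.96. Without any 1 of the knockout Ago2 IP libraries, 2 host clusters were called, 1 in each direction. Between genotypes, the enrichment differed past the threshold at 4 of 7 host clusters, where 53.6% of 608 clusters were. The host clusters had a median of 1.43 and all clusters one of 2.67. Site 9 differed by 2.85 (SE 0.40), and site 1 by -0.13 (SE 0.85). This difference contains the Ago2 IP contrast that chose the locus. The count and these values therefore only describe the clusters, and no p is given.

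The 5 gene spans whose level followed that of the host most closely over the 12 libraries, among 2013 spans, were Rfx7 (r = 0.96), Dock10 (0.93), Nsd1 (0.92), St6galnac3 (0.91) and Upf2 (0.90). Rfx7 encodes a DNA-binding transcription factor and Nsd1 a histone methyltransferase. These are Pearson correlations of log2 rpm (a small constant added) across libraries of 4 groups, and the libraries share their depth and miR-181 content within a group. In the knockout Ago2 IP their log2 fold changes were smaller than that of the host. Rfx7 had 381 ± 13.9 rpm in wild type and 647.5 ± 90.9 in the knockout (SD, n = 3 each), at 0.74 (SE 0.22) on the log2 scale. Dock10, Nsd1 and St6galnac3 were at 0.41, 0.47 and 0.69, and Upf2 had too few reads for the fit. The spans were picked with these libraries, so no p is given.

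The nearest genes with at least 50 reads were set beside the host, 2 on each side. Ptprc, which encodes the leukocyte surface phosphatase CD45, begins 53081 nt beyond the host. Its Ago2 IP level was 2756 ± 356 rpm for wild type and 2713 ± 88.8 rpm for the knockout (SD, n = 3), with a log2 value of -0.05 in the fit (edgeR, SE 0.12, adjusted p = 0.858). Nek7, further on, was at -0.48 (SE 0.31, adjusted p = 0.378), and Zfp281, on the other side, at 0.20 (SE 0.32, adjusted p = 0.790). Kif14 had 6 wild-type and 17 knockout reads and was not tested.

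Other genes known to hold miRNA hairpins were also compared, counted with strand ignored. The list did not leave out genes at other miR-181 loci. Of the 22 listed genes, 21 were in the gene table and 5 had enough reads to be tested between knockout and wild type. Of these, 0 were called by edgeR and 0 had an unadjusted p under 0.05, where 341 of all 1571 spans had one. Dleu2, which carries miR-15a and miR-16-1, was at 0.02 (SE 0.26, edgeR adjusted p = 0.972), with 309 ± 115 and 358 ± 63.1 rpm (SD, n = 3). Smc4 was at 0.02, Huwe1 at 0.08, Arpp21 at -0.06 and Nr6a1 at -0.71 (SE 0.42, adjusted p = 0.326). Their median was 0.02 against 0.01 over all spans. Mir17hg had 1 read in each Ago2 IP group and Mir155hg 0 and 1, so neither could be compared at this depth.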

How the data were processed

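The deposited files list chimeric reads 1 per line, each with a miRNA name, a strand and 1 nt of position, so that lines were summed to raw counts. The submitters' processing notes name Bowtie2 2.4.5, STAR 2.7.10, SAMtools 1.11, UMI-tools 1.1.1 and bedtools 2.30.0, without their roles, and the builds mm10 and GRCm38.p6. Repeated lines made up 3.24% to 34.1% of a library and were kept.

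Reads over gene spans (RefSeq GRCm38.p6, strand ignored, the host as 1 row) and over clusters (reads on 1 strand at most 20 nt apart) were compared with edgeR 4.0.16 in R 4.3.3 (quasi-likelihood F test, TMM, filterByExpr with a minimum count of 10) at an adjusted p of at most 0.05. A miRNA was tested where at least 5 host reads were predicted from its overall share, with totals at the host and elsewhere in place of TMM. The SE given with an edgeR value is the size of the log2 value divided by the square root of its F statistic. Tested on simulated data with log2 changes of 2 (2920, 753, 1029, 114, 44 and 22 features), the fits recovered 97.3% and 97.5% (gene spans, enrichment in wild type and knockout), 96.8% and 100% (clusters), and 100% and 100% (miRNAs) of changed features. False calls in the same order were 4 beside 183 recovered, 2 beside 195, 8 beside 179, 4 beside 34, 1 beside 5 and 2 beside 5. Changed features were drawn only from those with many reads, and the simulated spread was fixed. Recovery of smaller changes or of features with few reads is therefore not known. Intervals are 95% Wilson intervals or exact ones and cover counting error only, and 3 reads, the limit that a count of 0 allows, were 10.2 to 439 rpm of a library. The labels do not say that libraries came from separate animals, so p values measure the spread between these samples, which may be technical. Members, gene lists, sites and tests were chosen with earlier results of these data known. Named sites are the 10 largest clusters; named miRNAs are the 10 with most host reads, the miR-181 family and all called ones, with further names after their values were seen. Named genes are the 5 most alike over 12 libraries (at least 120 reads), neighbours with at least 50 reads, and the list of miRNA host genes.

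Alternatives were DESeq2 1.42.0, library sizes, no filter, distinct lines, clusters joined at 50 nt, a replicate block, all 12 libraries and leaving out each library; the difference between genotypes was added after the data were seen. The genome sequence of the sites was not used here.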

Additional observations from a re-analysis of the deposited data

Results flagged for a closer look

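The effect of the miR-181 enrichment was compared between the genotypes (edgeR, knockout minus wild type, on the log2 scale). Of 7 host clusters, 4 passed the threshold, beside 53.6% of 608 clusters. This difference contains the Ago2 IP contrast that chose the locus, so its values only describe the clusters and no p is given. Site 9 differed by 2.85, site 5 by 2.24, site 6 by 1.87 and site 10 by 1.43. All 4 values were positive, and the median over all 608 clusters in that fit was 2.67. The value of site 9 was above this median, and those of the other 3 sites were below it. Site 7 was at 0.55 and site 1 at -0.13.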

How the results depend on the processing

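Of 135 alternative values of 14 results, 98 were counted as the same. For tests, this means that direction and side of the threshold were kept. Counts of calls had to stay within 1.5 times, which does not mean that the calls were the same. Levels and shares had to move by less than the SD between replicates. The cause of the other changes was not tested. The enrichment of the whole host in wild type (-0.19) was -0.36 with distinct lines (adjusted p = 0.00372) and -0.56 with library sizes alone (adjusted p = 6.16e-04), both called, and 0.0078 with no filter; leaving out 1 library gave -0.25 to -0.10. In the knockout (0.05) it was -0.13 with all 12 libraries, -0.037 with distinct lines, -0.14 with library sizes alone and -0.65 with no filter (adjusted p = 0.0246). Without 1 library it was -0.29 to 3.85e-04, and -0.29, -0.21, -0.16, -0.06 and -0.06 in the 5 cases below 0. Wild-type host clusters called (3) were 5 with all 12 libraries, 5 when joined at 50 nt, and 3 to 5 without 1 library; no filter gave 4, of which 3 were higher. In the knockout (4) they were 12 with no filter and 2 to 5 without 1 library. miRNAs called in the knockout (4) were 0 with DESeq2, 7 without the miR-181 family, 9 with no replicate block, 1 with no filter and 2 to 7 without 1 library; with TMM all 4 were higher and miR-17-5p was not called (adjusted p = 0.0587). In wild type (1) they were 0 with DESeq2, 0 without the miR-181 family, 0 with TMM and 0 to 1 without 1 library. The knockout level after enrichment (1.66 on the log2 scale) was 1.96 with library sizes alone, and 1.28 to 1.84 without 1 library. In the Ago2 IP (1.51) it was 1.46 to 1.57 without 1 library, and 1.45 to 1.56 without miR-181 names. The upstream share in enriched wild-type libraries was 95.7% with distinct lines. Without 1 library, upstream shares were 90.6% to 92.0% and 70.8% to 73.2% in the wild-type and knockout Ago2 IP, and 96.2% to 96.6% and 84.4% to 87.2% after enrichment, and the miR-181 share was 27.5% to 29.3%. Over all pairs of groups, same-numbered libraries had correlations of their deviations from -0.08 to 0.15. Between knockout Ago2 IP and enriched libraries they were 0.018, 0.0043 and 0.014, all above the -0.017 to 0.0027 of different numbers. In wild type they were 0.15, 0.0022 and 0.041, against -0.091 to 0.059. The main enrichment tests did not pair libraries by number. Whether same-numbered libraries share animals is not known. With the replicate block, the enrichment was -0.19 (adjusted p = 0.131) in wild type and 0.05 (adjusted p = 0.769) in the knockout, and 3 and 4 clusters were called. Knockout enriched libraries, with 6832 to 19264 reads, limit what can be seen at single sites.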
